A study of Mus musculus with 2 samples.

Results

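Mir185, Mir187, Mir505, Mir3547, Mir674 and Mir21a, 6 of the 2202 microRNA genes in the deposited tables, are described here. They were chosen by their measured levels, which lay more than 3-fold apart between the 2 replicate libraries at a mean of at least 50 counts. Genes already placed in another family or group of microRNAs were set aside. That ratio is therefore a description of the choice, and no test of it is given. The tissue of both libraries is labelled left cerebral cortex, strain B6CASTF1/J, male; the strain is the first-generation cross of C57BL/6 and CAST/Ei, and the age 14 days. No genetic alteration or treatment is named, and both libraries belong to 1 group, so no comparison of conditions exists. The labels call the libraries biological replicates 1 and 2. Both carry the same donor label, and their tissue records both read 3x Males, with the numbers 03 and 04. Whether a library came from 1 animal or several, and whether the libraries share animals, is not stated, so the spread between the libraries may be technical. The whole tissue was sequenced, and in such samples fewer cells of a type and less RNA per cell cannot be told apart.

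A microRNA is cut from a hairpin precursor as a short RNA that guides Argonaute proteins to messenger RNAs. Pairing runs mainly through the seed, bases 2 to 8 from the 5′ end of the mature strand. Many microRNA hairpins lie in introns of protein-coding genes and are transcribed with them, others have transcripts of their own, and a mirtron is a hairpin that makes up a whole short intron and is released by splicing. miR-21, a broadly expressed microRNA studied in glia, inflammation and tumours, lies at the 3′ end of Vmp1. In mice, miR-185 is one of the microRNAs of the region that corresponds to the human 22q11.2 deletion.

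The mature sequences are shown because the tables give 1 count per hairpin and do not separate its arms. Either strand of a hairpin, printed below or not, may have supplied the reads. RefSeq (GRCm38.p6) held mature sequences for 5 of the 6 genes, 9 in all, and the seed is in capitals. No sequence is printed for Mir187 or for miR-185-5p, the other strand of the Mir185 hairpin, which the RefSeq sequences used here did not hold.
mmu-miR-185-3p: aGGGGCUGgcuuuccucuggu
mmu-miR-505-5p: gGGAGCCAggaaguauugauguu
mmu-miR-505-3p: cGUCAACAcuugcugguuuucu
mmu-miR-3547-5p: gUGGGAAGagggguggggcccggga
mmu-miR-3547-3p: uGAGCACCaccccucucucag
mmu-miR-674-5p: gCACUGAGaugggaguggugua
mmu-miR-674-3p: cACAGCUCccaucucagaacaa
mmu-miR-21a-5p: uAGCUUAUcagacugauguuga
mmu-miR-21a-3p: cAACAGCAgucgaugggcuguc

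Mir187 and miR-185-5p are not covered by what follows on mature sequences. The 9 printed sequences carry 9 different seeds, so none of them shares its seed with another. Their GC content ran from 36.4% in mmu-miR-21a-5p to 76.0% in mmu-miR-3547-5p, and their length from 21 to 25 bases. G opened 3 of the 9, C another 3, U 2 and A 1. Over the 536 mature sequences of all genes with a mean of at least 50 counts, 12.3% began with G, 23.1% with C, 37.7% with U and 26.9% with A. None of the 6 hairpins shared an 18-base stretch with another microRNA gene. The printed mature sequences occurred in no GENCODE M21 transcript of another gene, except that both miR-21a strands lie in Vmp1 itself. Copies outside annotated transcripts were not examined.

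Replicate 1 held 4111167 counts in microRNA genes and replicate 2 held 3189903, 36.6% and 36.4% of their reads. Reads that matched several genomic positions, given to no gene, made up 39.1% and 41.4%. Levels are in CPM, counts scaled to the same total of gene counts in each library, and 1 count was worth 0.243 CPM in replicate 1 and 0.313 CPM in replicate 2. Neuron-associated microRNAs, the check of the labelled tissue, summed to 150432 and 139820 CPM over 14 genes, of which 10 had at least 10 counts in each library. Mir139 alone made up 101560 and 83088 CPM of these sums; without it the other 13 summed to 48872 and 56732 CPM. Of the 14 genes, 10 have hairpin stretches in common with further genes, so their counts can be too low. Of the 310 genes with a mean of at least 50 counts, 11 lay over 3-fold apart (3.55%), 6 lower in replicate 2 (1.94%) and 5 higher (1.61%). The 6 genes described here are among those 11 by choice. Rescaling the totals by TMM shifted every log2 ratio up by 0.15, from a median of -0.11 over these 310 genes, and the split was then 5 lower and 9 higher.

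The split ran in both directions. Mir185, Mir187, Mir505 and Mir3547 were lower in replicate 2, and Mir674 and Mir21a were higher. Together the 4 lower genes held 0.589% of the counts in replicate 1 and 0.130% in replicate 2. The other two held 0.210% and 0.820%. Because the moves are opposed, the summed share of all 6 was 0.799% in replicate 1 (exact Clopper-Pearson 95% interval 0.790 to 0.808%) and 0.950% in replicate 2 (0.939 to 0.960%), a mean of 0.874% ± 0.107 (SD, n = 2). Intervals here cover counting error only. The counts are of reads, with no molecular identifiers to mark copies of 1 molecule, so the intervals can be too narrow.

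**Figure D1:**
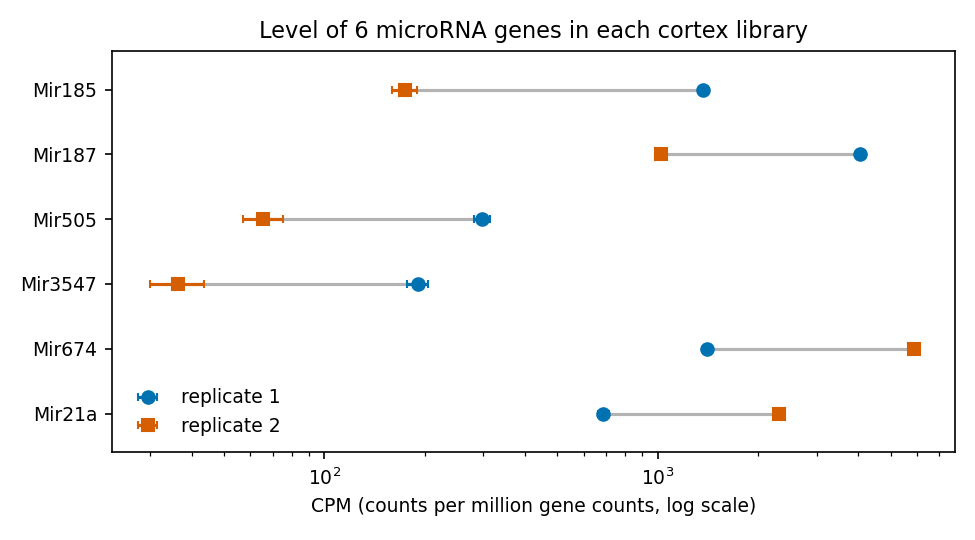
CPM of each gene (log axis) in replicate 1 (circles) and replicate 2 (squares); bars are exact Poisson 95% intervals of the counts and are often narrower than the symbol. Mir185, at 1363 CPM (replicate 1) and 174 CPM (replicate 2), has the longest line, and Mir674 and Mir21a are the genes whose square lies to the right.

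Mir185 (ENSMUSG00000065464.2; mm10 chromosome 16, 18327401 to 18327465, minus strand) differed most of the 6. It had 5604 counts in replicate 1 and 556 in replicate 2, or 1363 and 174 CPM. Replicate 2 was 7.82-fold lower (95% interval 7.17 to 8.55), a log2 ratio of -2.97, and the gene went from rank 90 to rank 187 of all microRNA genes. The hairpin lies on the same strand in an intron of Tango2 (18300825 to 18348103), a gene linked to Golgi organization and metabolism. No exon of its 19 annotated transcripts overlaps it, and the nearest exons of the intron are 2950 and 3888 bases away. The closest detected microRNA gene, Mir1306 in an exon of Dgcr8, lies 43.1 kb away on the same strand. Dgcr8 encodes the RNA-binding partner of Drosha, which cuts microRNA hairpins. Mir1306 stood at 235 CPM (replicate 1) and 199 CPM (replicate 2), a log2 ratio of -0.24, while Mir185 stood at -2.97. Host transcripts such as Tango2 and Dgcr8 were not analysed here.

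Mir505 (ENSMUSG00000070081.2; chromosome X, 60394403 to 60394492, minus strand) had 1222 counts in replicate 1 and 209 in replicate 2, or 297 and 65.5 CPM. It was 4.54-fold lower in replicate 2 (3.91 to 5.28), a log2 ratio of -2.18. All 3 other microRNA genes within 1 Mb had 0 counts in both libraries. They share an 18-base stretch with further genes, so those 0 counts set no limit on abundance.

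Mir3547 (ENSMUSG00000093202.2; chromosome 17, 25245551 to 25245638, minus strand) was the least abundant of the 6, with 784 counts in replicate 1 and 116 in replicate 2. These are 191 and 36.4 CPM, a 5.24-fold lower level in replicate 2 (4.31 to 6.43) and a log2 ratio of -2.39. Its 88-base hairpin fills an 88-base intron of Baiap3 exactly, with 0 bases left to the exon on either side, which is the layout of a mirtron. Baiap3 is a Munc13-related gene of vesicle exocytosis. The 3′ mature sequence printed above ends at the last base of that intron, and the 5′ one starts at its first base. The detected microRNA gene within 1 Mb, Mir3082 in an exon of Stub1, had 12 and 10 counts, too few to set against it.

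Mir187 (ENSMUSG00000065532.1; chromosome 18, 24429110 to 24429170, minus strand) was the most abundant of the lower group. It had 16617 counts in replicate 1 and 3258 in replicate 2, or 4042 and 1021 CPM. Replicate 2 was 3.96-fold lower (3.81 to 4.11), a log2 ratio of -1.98, and the rank moved from 49 to 104. The gene lies outside other annotated genes, 41.7 kb from 2700062C07Rik, which lies on the opposite strand. Of the other two microRNA genes within 1 Mb, neither had a count; for Gm23606, which shares an 18-base stretch with 48 further genes, this sets no limit on abundance.

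Mir674 (ENSMUSG00000076376.1; chromosome 2, 117185127 to 117185226, plus strand) was the most abundant of the 6 on average and higher in replicate 2. It had 5795 counts in replicate 1 and 18776 in replicate 2, or 1409.6 and 5886 CPM. The ratio was 4.18-fold (4.05 to 4.30), a log2 ratio of 2.06, and the rank went from 88 to 33. No annotated gene overlaps it. The nearest, Spred1, a negative regulator of Ras signalling, ends 2.85 kb before it on the same strand, and no other microRNA gene lies within 1 Mb. Of the 6 genes only Mir674 had counts on the opposite strand, 0 in replicate 1 and 2 in replicate 2.

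Mir21a (ENSMUSG00000065455.1; chromosome 11, 86584067 to 86584158, minus strand) had 2826 counts in replicate 1 and 7380 in replicate 2, or 687 and 2314 CPM. It was 3.37-fold higher in replicate 2 (3.22 to 3.52), a log2 ratio of 1.75. The hairpin lies at the 3′ end of Vmp1, an autophagy gene of the endoplasmic reticulum, in the untranslated last exon of 1 of its 8 annotated transcripts. Mir301, 528.8 kb away in an intron of Ska2, was lower in replicate 2, at 196 and 97.2 CPM (log2 ratio -1.01). Mir21c, which shares the miR-21a-5p seed, had no count in either library. A count of 0 allows a level of up to 0.730 CPM (replicate 1) or 0.940 CPM (replicate 2), the worth of 3 counts.

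**Figure D2:**
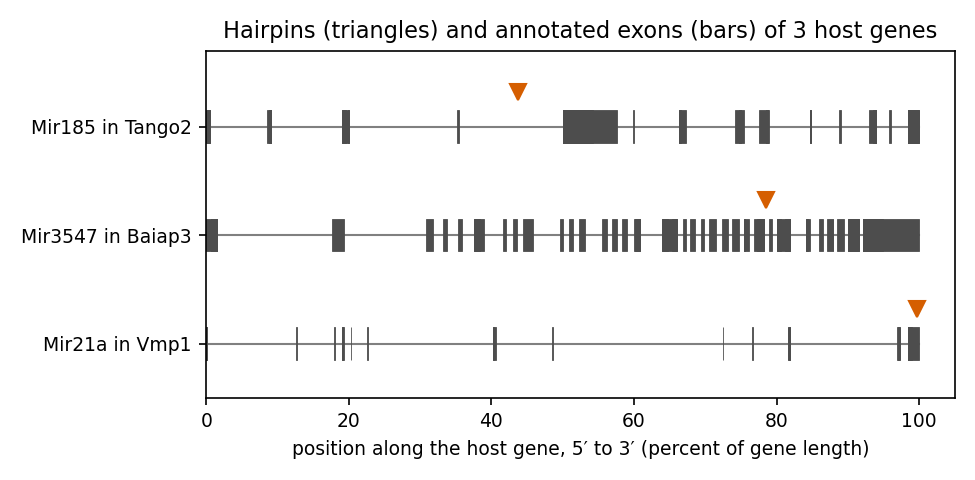
Position of the hairpin (triangle) along each of 3 host genes, drawn 5′ to 3′ as percent of gene length with all annotated exons as bars. Mir185 sits in an intron, Mir3547 between adjacent exons of Baiap3, and Mir21a at 99.8% of the length of Vmp1.

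By position, Mir185 and Mir3547 of the lower group are intronic and Mir187 lies outside genes, while of the higher pair Mir21a lies in a host's last exon and Mir674 outside genes. With so few genes this is a list of cases. Mir185, Mir3547 and Mir21a lie on the strand of their host. Among the 8 genes that share a seed with a printed sequence, Mir1947, which shares that of miR-674-5p, was the only one with at least 10 counts in each library, at 4.38 and 4.08 CPM. Its log2 ratio was -0.10, against 2.06 for Mir674, at 18 and 13 counts.

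The order of the 6 levels changed between the libraries. In replicate 1 it ran Mir187, Mir674, Mir185, Mir21a, Mir505, Mir3547. In replicate 2 it ran Mir674, Mir21a, Mir187, Mir185, Mir505, Mir3547. Mir674 and Mir185 were neighbours in replicate 1, with overlapping counting intervals (1374 to 1446 CPM and 1328 to 1399 CPM) and a ratio of 1.03. In replicate 2 the same ratio was 33.8. Mir674 over Mir187 went from 0.349 in replicate 1 to 5.76 in replicate 2, and Mir21a over Mir185 from 0.504 to 13.3. Large changes in these opposed pairs follow from choosing genes past 3-fold in opposite directions, so they are no support for the split. For pairs on the same side of the split, Mir674 over Mir21a was 2.05 in replicate 1 and 2.54 in replicate 2, Mir505 over Mir3547 was 1.56 and 1.80, and Mir187 over Mir185 was 2.97 and 5.86. The genes of these pairs were chosen past 3-fold in the same direction, so their smaller changes follow in part from the choice. They are no support for a joint change. Ratios of counts within a library do not depend on how the library total is set.

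Averaged over both libraries, the levels were 3648 ± 3165 CPM for Mir674 and 2532 ± 2136 CPM for Mir187 (SD, n = 2). Mir21a followed at 1500.5 ± 1149.9 CPM and Mir185 at 769 ± 841 CPM. Mir505 stood at 181 ± 164 CPM and Mir3547 at 114 ± 109 CPM. These SDs are large because the genes were chosen for the gap between the libraries. Within each library Mir674 lay above Mir21a, Mir187 above Mir185, and Mir185 above Mir505 and Mir505 above Mir3547, so these parts of the order were the same in both. The places of Mir674 and Mir187, and of Mir21a against Mir187 and Mir185, changed between the libraries.

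**Figure D3:**
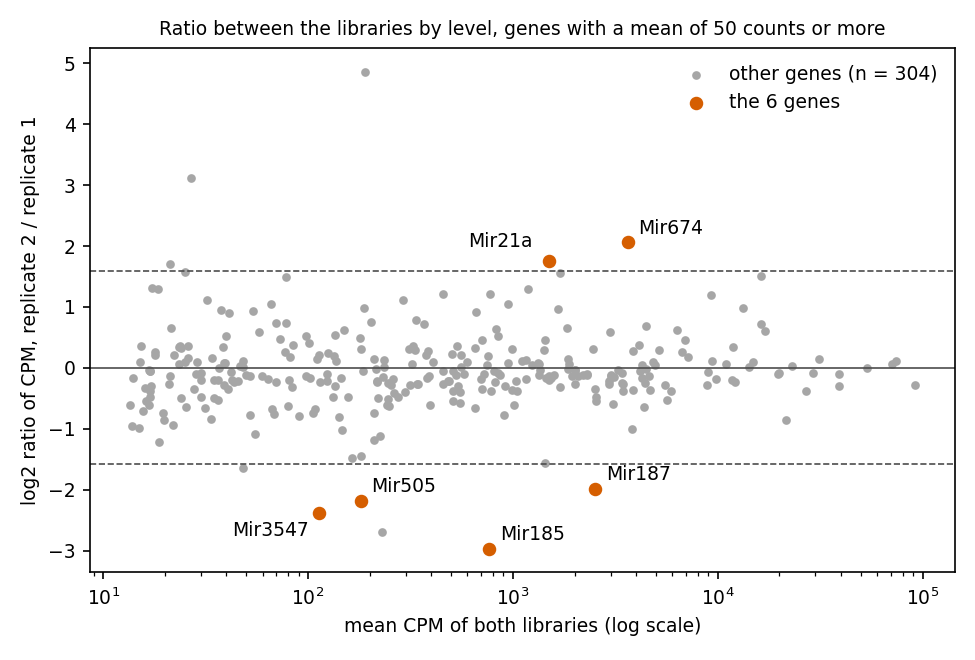
Log2 ratio of CPM, replicate 2 over replicate 1, against mean CPM (log axis) for the 310 genes with a mean of at least 50 counts; dashed lines mark 3-fold. The 6 genes (labelled) lie outside the lines by choice, 3 of them above 1000 CPM where no other gene does at this scaling. Mir140 (log2 ratio 1.56), Mir298 (1.51) and Mir222 (-1.56), also above 1000 CPM, lie just within the lines. The TMM shift of 0.15 takes Mir140 and Mir298 past 3-fold.

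Near the 3-fold limit the choice is narrow. Mir21a, at 3.37-fold, is the member closest to it. Mir181a-2 (3.27-fold higher in replicate 2) and Mir592 (3.11-fold lower) also lay inside, as did Mir153, Mir200b and Mir26a-2, which were not chosen here. The hairpins of Mir181a-2 and Mir26a-2 each hold 18 bases in a row that also occur in another hairpin, so their counts are uncertain. Just outside were Gm49347 (2.97-fold higher), Mir140 (2.96-fold higher) and Mir222 (2.95-fold lower). Mir140 stood at 854 and 2527 CPM, a pattern close to that of Mir21a in both level and ratio. By the log2 ratio alone, over 2 libraries and among genes outside the 6, Mir181a-2 (1.71) came nearest to Mir21a and to Mir674. In the same set Mir153 (-2.69) was nearest to Mir185, Mir505 and Mir3547, and Mir592 (-1.64) to Mir187. With 2 libraries a pattern is a single ratio, so this likeness is slight.

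Summed levels of microRNAs that mark cell types are given beside the split. Microglia and leukocyte markers (7 genes) summed to 7738 and 10049 CPM, of which Mir342 alone made up 5821 and 7986 CPM. The other markers of this list with a mean of at least 50 counts went both ways. Mir146 (log2 ratio 0.31), Mir155 (0.18) and Mir223 (0.21) were higher in replicate 2, and Mir150 (-0.05) and Mir142 (-0.80) lower. Endothelial Mir126a stood at 10449 and 13176 CPM, the oligodendrocyte list (3 genes) at 2864 and 2531 CPM, and the smooth muscle and pericyte list (2 genes) at 5074 and 5217 CPM. Choroid plexus and ciliated cell markers (7 genes, Mir449b at 0 in both) summed to 945 and 1316 CPM, and erythroid markers (3 genes) to 75.9 and 112 CPM. The epithelial list (7 genes) stood at 184 and 222 CPM and the Hox cluster list (5 genes, Mir196a-1 and Mir196a-2 at 0 in both) at 30.2 and 58.3 CPM. The epithelial sum holds genes that moved in opposite directions. Mir203 (123 and 104 CPM) and Mir200c (log2 ratio -0.74) were lower in replicate 2. Mir200b (5.59 and 48.3 CPM) and Mir429 (20.2 and 43.9 CPM) were higher. Summed levels of the 9 lists differed by log2 ratios between -0.18 and 0.95, and of the markers with a mean of at least 50 counts 1, Mir200b, lay past 3-fold. Below that minimum, Mir10a of the Hox list stood at 1.70 and 6.90 CPM. The part of cell composition in the split of the 6 genes was not tested.

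**Figure D4:**
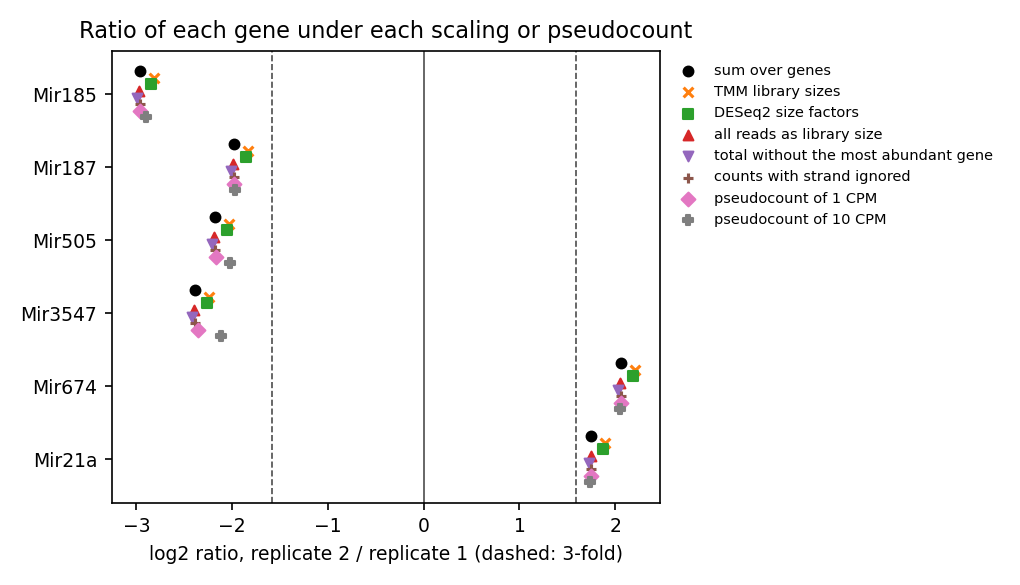
Log2 ratio of each gene, replicate 2 over replicate 1, under the sum over genes and 7 other scalings, strand settings or pseudocounts; dashed lines mark 3-fold. All points of the 4 lower genes stay left of the lower line and all points of Mir674 and Mir21a right of the upper one.

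The direction of the split held under other library totals. Under 7 alternatives per gene, all 42 ratios kept their direction and stayed past 3-fold; they rescale the counts that chose the genes and are no independent support. The log2 ratio of Mir187 ranged from -2.01 to -1.84 and that of Mir21a, nearest to the limit, from 1.72 to 1.90.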

How the data were processed

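Small RNA sequencing counts of 2 libraries of 1 group were used. The authors deposited unnormalized read counts, 3 per microRNA gene (either strand, its own strand, the opposite strand); the texts deposited with them name build mm10 and annotation GENCODE M21. Which aligner and counter made them is not given in the sources used here. Own-strand counts were used; rows for unmapped, multiply mapped and unassigned reads (63.4% and 63.6% of reads) stayed out of library totals. All 2202 IDs matched GENCODE M21. Ratios have exact conditional binomial 95% intervals. With 2 libraries of 1 group no test over samples was possible, and none was made on the ratio that chose the genes. The genes, lists and thresholds were chosen with earlier results of these data known. Named beside the 6 were genes nearest the limit, detected microRNA genes within 1 Mb, seed relatives, genes of nearest ratio, the most abundant gene and marker lists. Alternatives used edgeR 4.0.16 (TMM) and DESeq2 1.42.0 size factors, strand ignored, all reads as the total, other minimums, folds and pseudocounts. The host of Mir505 is not reported here. Procedures were tested on simulated data. Python used scipy 1.17.1.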

Additional observations from a re-analysis of the deposited data

How the results depend on the processing

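The number of genes over 3-fold apart was 11 of 310 at a mean of at least 50 counts and 21 of 445 at a mean of at least 10 counts. With no count minimum and a pseudocount of 1 CPM, which shrinks ratios at low counts, it was 21 of 2202. At the minimum of 50 counts it was 34 of 310 at a fold threshold of 2 and 7 of 310 at a fold threshold of 4. A lower count minimum or a lower fold lets more genes in by construction. A mean of at least 200 counts, strand ignored, TMM, DESeq2 size factors, all reads or leaving out Mir139 gave 8 to 14. Of these settings, the minimum of 200 counts tested 235 genes, strand ignored 285 and the others 310. Of the 6 genes, Mir187, Mir21a and Mir674 moved beyond their counting intervals with both TMM and DESeq2 size factors and Mir185 with TMM, by 0.15 and 0.12 on the log2 scale; none reversed. The summed share stayed within 1 SD under the scalings and strand setting tried, and was 0.799 to 0.950% without either replicate, which with 2 libraries says nothing about stability. A ratio between the libraries cannot be had with either left out. No paired analysis was possible because there was 1 group.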

Other observations

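The 6 genes lay at different levels of the profile. Of 105 genes with a mean of at least 1000 CPM, 3 lay over 3-fold apart, and these were Mir187, Mir674 and Mir21a. The median absolute log2 ratio of the 105 was 0.21. Mir140 (2.96-fold), Mir222 (2.95-fold) and Mir298 (2.84-fold) of the same band lay just under the limit. TMM and DESeq2 size factors take Mir140 and Mir298 past it, so the count of 3 depends on the scaling. Between 200 and 1000 CPM, 2 of 80 genes did, Mir185 and Mir153, and between 50 and 200 CPM, 3 of 53 did, Mir505, Mir3547 and Mir26a-2.

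Hairpin GC content was 58.5% for Mir185, 63.9% for Mir187, 47.8% for Mir505 and 59.1% for Mir3547, the lower group, and 57.0% for Mir674 and 45.7% for Mir21a. The groups overlap. Across the 310 genes, which share both libraries and their depth, the log2 ratio had a Pearson correlation of -0.12 with hairpin GC and a Spearman correlation of -0.19; this is a description across genes, not across samples. The median log2 ratio was 0.06 in the 85 genes under 45% GC and -0.22 in the 52 genes at 60% or more. Hairpin length gave a Pearson correlation of 0.00183, mean CPM on the log2 scale 0.0404 and the GC of the mature sequences (284 genes with one in RefSeq) -0.14. The part of base composition in the split was not tested.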
